A study of Medicago sativa with 12 samples.

Results

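The comparison described here sets leaves of melatonin-treated alfalfa (M) against leaves of control plants (CK), which together make up 6 of the 12 RNA sequencing libraries of the study. All 164632 gene models of the expression table entered, and 50931 of them had a mean of at least 1 FPKM (fragments per kilobase of transcript, scaled to the mapped fragments of each library) over the 12 libraries and were tested. Counts were also added up over all models that carry 1 description, and 15402 of 28065 such annotation sums passed the same filter. Alfalfa, Medicago sativa, is a forage legume whose cultivated form carries several copies of each chromosome, and the table places its gene models on up to 4 copies of 8 chromosomes, so an annotation sum pools the copies of a gene together with relatives of the same name.

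M plants of cultivar zhongmu 1# received Hoagland nutrient solution with 50 µM melatonin and no added NaCl, and CK plants received the nutrient solution alone. Each group had 3 libraries of leaf RNA (M1 to M3 and CK1 to CK3), which the study's methods call biological replicates. The other 6 libraries came from plants given 150 mM NaCl with melatonin (SM) or without it (S), and they enter here through the shared estimate of the spread between libraries and through 1 test of a difference. The question was which transcripts differ in leaves that received melatonin without salt. In bulk leaf RNA, fewer cells of a type and less RNA per cell cannot be told apart.

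Melatonin is an indoleamine that plants make from tryptophan through tryptamine and serotonin, and it is known as an antioxidant and a regulator of growth and stress responses. Several of the transcripts described below belong to the jasmonate pathway, in which the hormone triggers the breakdown of JAZ repressors, members of the TIFY family, and so releases MYC2 and related bHLH activators. In Arabidopsis the genes of JAZ repressors are themselves targets of MYC2, and together with genes of cell wall enzymes and calcium sensors they are known for transcripts that accumulate soon after touch or wounding.

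The 6 libraries held 51459188 to 55627908 estimated counts, and 71225 to 76589 gene models had at least 1 count. The 43 leghemoglobin gene models, markers of root nodules, held 0 counts in all 6 libraries, which cannot tell leaves from roots without nodules. The list of root and nodule markers summed to 152, 337 and 85.1 FPKM in M1, M2 and M3, against 70.2, 117 and 194 FPKM in CK1, CK2 and CK3. Light-harvesting antenna proteins summed to 11653, 3797 and 20569 FPKM in M1, M2 and M3, against 14026, 14109.9 and 9174 FPKM in CK1, CK2 and CK3. The library M2 stood apart. Its mean correlation with the other 5 libraries over annotation sums was 0.904, against 0.917 to 0.932 for the others, and over gene models it was 0.752, against 0.771 to 0.799. A sum described as putative reverse transcriptase, RNA-dependent DNA polymerase held 5.7, 628 and 8.87 FPKM in M1, M2 and M3, against 5.98, 12.5 and 16.3 FPKM in CK1, CK2 and CK3. M1 correlated best with CK3 and CK1 with M1, so the libraries did not separate by treatment as a whole. The part of these differences in the results below was not tested, and counts are therefore also given without M2.

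The study's thresholds, a difference of more than 2-fold in either direction and an unadjusted p under 0.05, were met by 574 annotation sums (3.73% of those tested). Of these, 383 were higher in M (2.49%) and 191 lower in M (1.24%). After Benjamini-Hochberg adjustment of the edgeR p-values, 0 of the 15402 sums were below 0.05, the smallest adjusted p being 0.194, while 1104 (7.17%) had an unadjusted p below 0.05. DESeq2 called 190 sums (1.24%) at an adjusted p below 0.05 on 12 libraries and 237 (1.55%) on the 6 libraries, and limma called 1 on log2(FPKM + 1) values and 0 on log2(FPKM + 0.1) values. The 3 M libraries lay all above the 3 CK libraries for 7.58% of the tested sums and all below for 5.36%. Among the 574 sums the groups did not overlap for 379, of which 252 were higher in M.

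Higher sums were often highest in M2, which was the top M library for 236 of the 383 higher sums (61.6%), against 46.3% of all tested sums. Without M2, 261 sums were higher in M (1.69%) and 225 lower (1.46%). Each library was also left out in turn (6 leave-one-out fits), and 178 of the 574 sums passed again in all 6 fits (1.16%), 119 higher and 59 lower in M. Below, "passed" means past the study's fold and unadjusted p thresholds, and each adjusted p is that of edgeR's quasi-likelihood test.

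**Figure D1:**
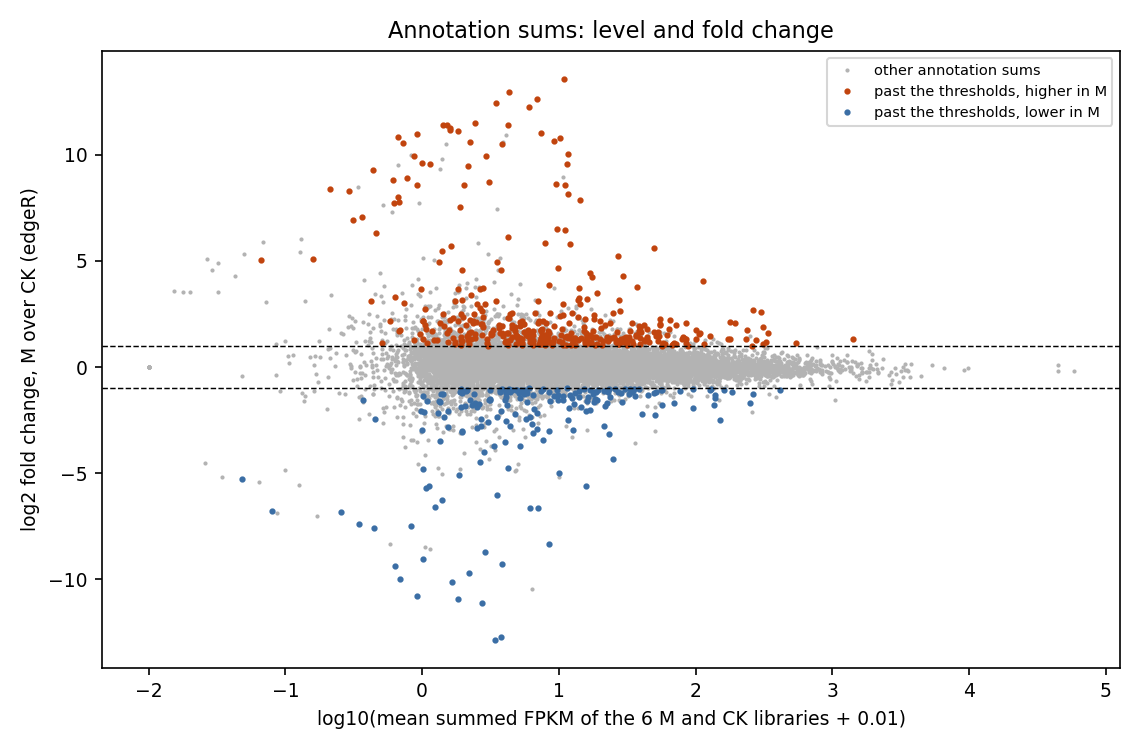
Each point is 1 of the 15402 annotation sums; the x axis is the log10 of its mean summed FPKM over the 6 M and CK libraries (plus 0.01), the y axis its log2 fold change of M over CK from edgeR, and dashed lines mark a fold of 2 in either direction. The 383 sums past the thresholds and higher in M outnumber the 191 lower ones, and most of both lie below a mean of 100 FPKM.

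The gene list with one of the highest shares past the thresholds was that of the JAZ/TIFY repressors, of which 7 of 11 sums were higher and 0 lower in M past the thresholds (2.49% and 1.24% over all sums). Some sums of this list repeat a name with another isoform label or letter case. These are TIFY 10A with TIFY 10a isoforms X1 and X3, and TIFY 5A with its isoform X1, so the 7 sums are not 7 separately named genes. The list's median log2 fold change was 2.14, against 0.04 over all tested sums, and the 3 M libraries lay all above the 3 CK libraries for 5 of the 11 (7.58% over all sums). The list as a whole summed to 467, 1808 and 386 FPKM in M1, M2 and M3, against 283, 310.4 and 393 FPKM in CK1, CK2 and CK3. This excess sat mainly in M2, and without that library 0 of the 11 sums passed (1.69% over all sums) and the median was 0.88. This list and those below were chosen with earlier results of these data known. A share above that of all sums is therefore no separate support.

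TIFY 10B, the most abundant JAZ repressor among those that passed, had 135, 653 and 95.5 FPKM in M1, M2 and M3, against 49.5, 57.3 and 82.7 FPKM in CK1, CK2 and CK3. Both groups were separate, with M2 far above M1 and M3 (log2 fold change 2.14 ± 0.70 (SE), adjusted p = 0.534), and the log2 fold change was 0.88 without M2, where it missed the thresholds. TIFY 10A held 6.46, 87.2 and 3.78 FPKM in M and 0.366, 0.734 and 3.13 FPKM in CK (log2 fold change 4.41 ± 1.25 (SE), adjusted p = 0.491), again without overlap, and its log2 fold change was 1.87 without M2, where it missed the p threshold. TIFY 5A isoform X1 showed 9.71, 152 and 7.02 FPKM in M and 1.57, 1.2 and 5.09 FPKM in CK (log2 fold change 4.30 ± 1.85 (SE), adjusted p = 0.677), a log2 fold change that ran from 1.69 to 5.13 across the leave-one-out fits and missed the thresholds without M2, CK1, CK2 or CK3.

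TIFY 11B had 54.4, 374 and 38.3 FPKM in M and 26.7, 49.2 and 56.4 FPKM in CK, so M1 and M3 lay within the CK range (log2 fold change 1.72, and 0.08 without M2). Near 0 everywhere but in M2 were TIFY 10a isoform X1, with 1.02, 64.2 and 0.725 FPKM in M and 0.129, 0 and 0 FPKM in CK, and TIFY 10a isoform X3, with 1.19, 56 and 0.334 FPKM in M and 0, 0.494 and 0 FPKM in CK. TIFY 5A, listed apart from its isoform X1, likewise held 0.393, 84.2 and 0.758 FPKM in M and 0.291, 0 and 0 FPKM in CK. TIFY 11B, TIFY 10a isoform X3 and TIFY 5A were named after their values were seen. The sums that did not pass were TIFY 3, TIFY 3B, TIFY 6B and TIFY 8, and TIFY 6B, the most even of the family, had 197, 151 and 193 FPKM in M and 156, 136 and 164 FPKM in CK.

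MYC2, the bHLH activator that JAZ proteins hold back, was the only 1 of 4 sums of its list that passed (25%, against 2.49% higher over all sums). It had 8.71, 94.5 and 2.04 FPKM in M1, M2 and M3, against 3.47, 2.9 and 2.48 FPKM in CK1, CK2 and CK3. M1 and M2 were above all CK libraries and M3 below them (log2 fold change 3.49, and 0.86 without M2). Among 16 sums of jasmonate biosynthesis, 2 passed and were higher in M (2.49% over all sums), and 1 did without M2. Allene oxide cyclase, which closes the cyclopentenone ring of the jasmonate precursor, held 3.34, 31 and 1.94 FPKM in M and 0.844, 1.88 and 4.14 FPKM in CK. Its log2 fold change ran from 0.14 to 2.91 across the leave-one-out fits and missed the thresholds without M2, CK1 or CK2. Probable linoleate 9S-lipoxygenase 5, whose class of enzymes leads to oxylipins other than jasmonate, had 22.9, 18.6 and 23.7 FPKM in M and 10.7, 7.34 and 9.18 FPKM in CK, with all M libraries above all CK libraries and little difference among them (log2 fold change 1.24 ± 0.29 (SE), adjusted p = 0.405).

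**Figure D2:**
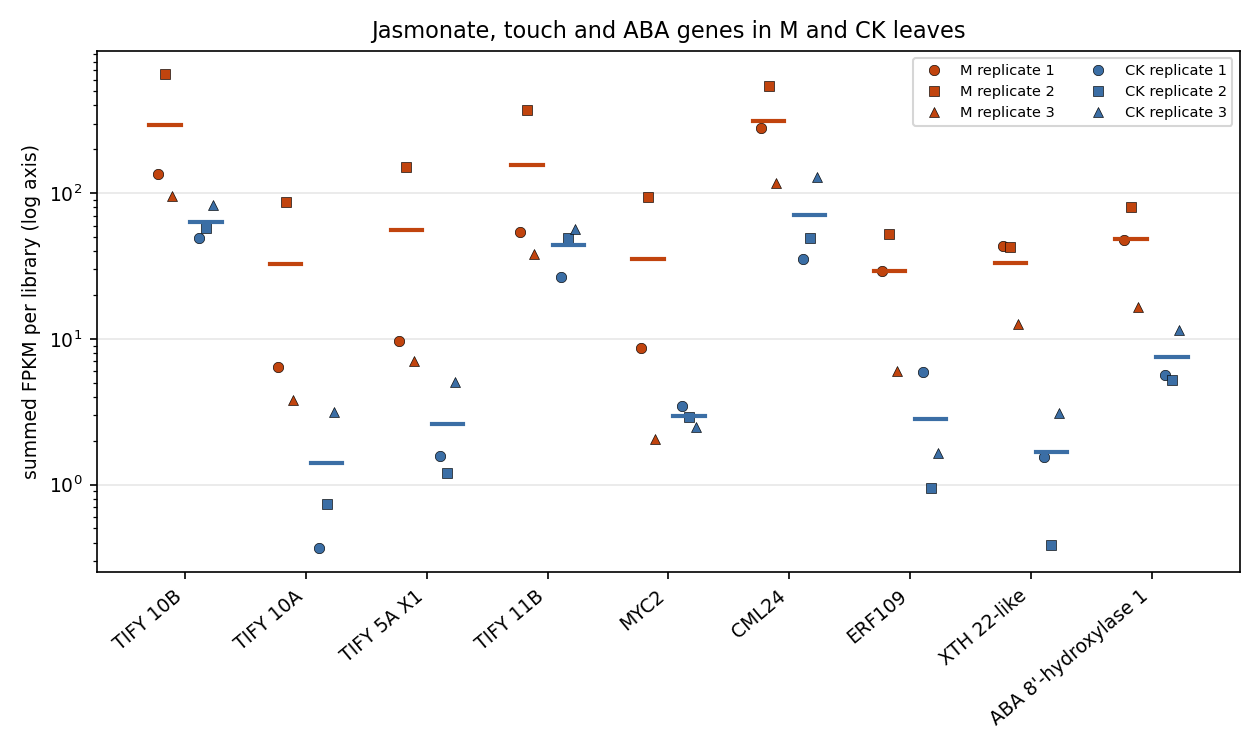
Summed FPKM on a log axis for 9 annotation sums, with M libraries in orange on the left of each pair and CK libraries in blue on the right; each symbol is 1 library and the bar is the group mean. M2 (square) is the highest M library for 8 of the 9 genes, reaching 653 FPKM for TIFY 10B, while XTH 22-like is nearly equal in M1 and M2.

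Of 14 touch- and wound-responsive sums, 9 were higher and 0 lower in M past the thresholds (2.49% and 1.24% over all sums), with a median log2 fold change of 2.68. This list shares 6 sums with the JAZ/TIFY list, among them the sums that repeat the names TIFY 10A and TIFY 5A. Of its other 8 sums, 3 passed (2.49% over all sums), and the M libraries lay all above the CK libraries for 4 (7.58% over all sums). Without M2, 2 sums of the whole list passed, both among these 8 (1.69% over all sums).

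CML24, a calmodulin-like calcium sensor known as a touch-inducible gene in Arabidopsis, had 279, 548 and 117 FPKM in M1, M2 and M3, against 35.6, 49.2 and 129 FPKM in CK1, CK2 and CK3. M1 and M2 stood above every CK library, and M3 lay just below CK3 (log2 fold change 2.09 ± 0.57 (SE), adjusted p = 0.491). The fold change passed in all 6 leave-one-out fits, at 1.48 to 2.78 on the log2 scale. XTH 22-like, a xyloglucan endotransglucosylase/hydrolase that cuts and rejoins cell wall xyloglucan, held 43.5, 42.7 and 12.6 FPKM in M and 1.53, 0.385 and 3.09 FPKM in CK, with no overlap (log2 fold change 4.24 ± 1.61 (SE), adjusted p = 0.593). The log2 fold change spanned 3.75 to 4.98 across the leave-one-out fits and missed the thresholds without CK1 or CK2. Of the list members that did not pass, probable XTH protein 23 was the most abundant, with 2352, 3017 and 1802 FPKM in M and 1383, 1743 and 1460.3 FPKM in CK, and the zinc finger protein ZAT10 had 279, 233 and 294 FPKM in M and 317, 289.7 and 423 FPKM in CK.

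For 23 sums of calmodulins and calmodulin-like proteins, 2 were higher and 0 lower (1 and 0 without M2), and the median was 0.35. The share of higher sums was 8.70%, against 2.49% over all sums. Besides CML24 this was calmodulin-like protein 11, with 41.2, 134 and 51.5 FPKM in M and 29.2, 28.4 and 20.5 FPKM in CK, whose log2 fold change ran from 0.85 to 1.77 across the leave-one-out fits and missed the thresholds without M2, CK1, CK2 or CK3. None of the 35 sums of calcium-dependent kinases, CBL sensors and CIPK kinases and none of the 4 respiratory burst oxidases passed. Among 15 sums of cyclic nucleotide-gated (CNGC) and glutamate receptor-like channels, which admit calcium and other cations, 1 was lower and 1 higher in M, and none of either without M2. Each share was 6.67%, against 1.24% lower and 2.49% higher over all sums. The putative CNGC 8 had 18.2, 12.6 and 19.2 FPKM in M1, M2 and M3, against 38.6, 29.8 and 44 FPKM in CK1, CK2 and CK3. All M libraries were below all CK libraries (log2 fold change -1.16 ± 0.25 (SE), adjusted p = 0.354), and the log2 fold change was just short of the threshold, at -0.95 without M2. A CNGC-like protein showed 16.8, 47.6 and 18.3 FPKM in M and 8.47, 11 and 10.1 FPKM in CK (log2 fold change 1.43 ± 0.43 (SE), adjusted p = 0.496), and its log2 fold change, 0.86 without M2, was also short of it.

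Among 48 sums of ERF and DREB factors, transcription factors with an AP2 domain, 6 were higher and 0 lower in M (2.49% and 1.24% over all sums). ERF106, the most abundant of the 3 with the smallest p, held 296, 469.6 and 276 FPKM in M1, M2 and M3, against 103, 175 and 225 FPKM in CK1, CK2 and CK3. The groups did not overlap (log2 fold change 1.01 ± 0.30 (SE), adjusted p = 0.496). On the log2 scale the difference ranged from 0.76 to 1.25 across the leave-one-out fits and missed the thresholds without M2 or CK1. ERF109, which in Arabidopsis is linked to wounding and jasmonate, had 29.2, 52.8 and 6.02 FPKM in M and 5.91, 0.948 and 1.65 FPKM in CK, and its log2 fold change was 3.22 and 2.55 without M2. It missed the p threshold without M2, CK2 or CK3. The cold- and drought-type factor DREB1E had 25.9, 44.5 and 6.28 FPKM in M and 4.86, 0.833 and 3.48 FPKM in CK, with all M libraries above CK, and its log2 fold change was 2.96 and 2.35 without M2, where it missed the p threshold. Without M2, 1 sum of the list was higher and 1 lower (1.69% and 1.46% over all sums).

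Cell wall genes were also examined, in a list that includes XTH 22-like and probable XTH protein 23 of the touch list. Of 24 xyloglucan endotransglucosylase and expansin sums, 3 were higher and 1 lower in M (2.49% and 1.24% over all sums), with a median of 0.63. XTH 22-like, given above, was 1 of the 3. Without M2, 1 was higher, again XTH 22-like, and 0 lower. Expansins loosen the wall during growth. Expansin-like A2 had 125, 222 and 88.8 FPKM in M and 48.4, 34.9 and 80.4 FPKM in CK (log2 fold change 1.34 ± 0.44 (SE), adjusted p = 0.543). Fitted log2 fold changes were 0.95 to 1.71 across the leave-one-out fits and missed the thresholds without M2 or CK2. Expansin A1 had 60.7, 91.1 and 33.3 FPKM in M and 13.5, 9.59 and 27.2 FPKM in CK, again with all M libraries above CK, and a log2 fold change that ran from 1.50 to 2.33 across the leave-one-out fits and missed the thresholds without M1, M2, CK1 or CK2. Cellulose synthase-like protein D2, a glycan synthase of the plasma membrane and Golgi named after its values were seen, held 22.7, 42 and 12.3 FPKM in M and 2.11, 1.91 and 3.3 FPKM in CK. Its M libraries all lay well above CK (log2 fold change 3.26 ± 0.67 (SE), adjusted p = 0.352), and it passed in all 6 leave-one-out fits.

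Abscisic acid (ABA) is the drought and salt hormone, and its level is set by synthesis from carotenoids and by 8'-hydroxylation, the main route of breakdown. Of 10 sums for these steps, 3 were higher and 0 lower in M (2.49% and 1.24% over all sums), with a median of 0.52. Without M2, 2 were higher and 0 lower. ABA 8'-hydroxylase 1 had 47.7, 80.1 and 16.6 FPKM in M1, M2 and M3, against 5.64, 5.18 and 11.5 FPKM in CK1, CK2 and CK3. The groups did not overlap (log2 fold change 2.66 ± 0.58 (SE), adjusted p = 0.354), and the log2 fold change stayed at 2.12 to 3.07 in the leave-one-out fits. ABA 8'-hydroxylase 4, the most abundant sum of the list, went the other way and did not pass. It held 25.6, 13.3 and 69.1 FPKM in M and 23.5, 170 and 106 FPKM in CK (log2 fold change -1.39 ± 0.95 (SE), adjusted p = 0.841). The whole list summed to 153, 176 and 204 FPKM in M and 87.7, 260 and 186 FPKM in CK. Zeaxanthin epoxidase isoform X3, of an early step of synthesis, held 3.42, 8.4 and 8.89 FPKM in M and 1.3, 2.06 and 1.21 FPKM in CK (log2 fold change 2.32 ± 0.76 (SE), adjusted p = 0.534). NCED1, the carotenoid-cleaving step, was low, with 1.75, 6.73 and 0.392 FPKM in M and 0.511, 0.796 and 1.13 FPKM in CK, so that M3 was below every CK library. Its log2 fold change ran from 0.37 to 2.25 across the leave-one-out fits and missed the thresholds without M2, CK1, CK2 or CK3.

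Of 62 sums of ABA receptors, PP2C phosphatases and SnRK2 kinases, 4 were higher and 1 lower in M (6.45% and 1.61%, against 2.49% and 1.24% over all sums), all 5 of them PP2C. Without M2, 3 were higher and 1 lower. In ABA signalling, clade A PP2C phosphatases hold SnRK2 kinases inactive, and the file's names do not assign these members to that clade. Probable PP2C 63 had 113, 164 and 67.4 FPKM in M1, M2 and M3, against 32.4, 41.7 and 57.2 FPKM in CK1, CK2 and CK3. The M libraries lay all above CK (log2 fold change 1.34 ± 0.35 (SE), adjusted p = 0.491). A protein phosphatase 2C-like protein held 17.4, 18.9 and 19.3 FPKM in M and 8.91, 2.74 and 9.74 FPKM in CK and probable PP2C 25, named after its values were seen, 10.8, 11.5 and 13.4 FPKM in M and 6.02, 3.39 and 5.56 FPKM in CK. Both were even across M1 to M3, and both missed the thresholds without CK2, where the lowest log2 fold changes of the leave-one-out fits were 0.96 and 0.96. Probable PP2C 51 was lower, with 2.06, 2.11 and 0.778 FPKM in M and 4.74, 5.56 and 26.3 FPKM in CK (log2 fold change -2.90 ± 0.63 (SE), adjusted p = 0.354), in all 6 leave-one-out fits.

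Other hormone and related lists held few or no calls. None of 13 Aux/IAA repressors, 17 auxin response factors, 11 SAUR and GH3 sums, 11 brassinosteroid sums, 32 cytokinin sums, 41 WRKY factors or 18 sums of NPR, TGA and EDS1 salicylate signalling passed. Of 16 ethylene sums 1 passed (6.25%, against 2.49% higher over all sums), an ACC synthase, which makes the ethylene precursor. It had 29.1, 32.8 and 14.8 FPKM in M and 11, 1.75 and 15.1 FPKM in CK. The log2 fold change spanned 0.91 to 1.92 across the leave-one-out fits and missed the thresholds without M1, M2 or CK2. ACC oxidase, which turns that precursor into ethylene and was the most abundant sum of the list, had 2278, 1793 and 1934 FPKM in M1, M2 and M3, against 3035, 3251 and 3932 FPKM in CK1, CK2 and CK3. All M libraries were below all CK libraries, yet the difference did not pass (log2 fold change -0.79 ± 0.37 (SE), adjusted p = 0.703).

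Of 40 sums of gibberellin metabolism and GRAS factors, 1 was higher and 4 lower in M, a share of lower sums of 10%, against 1.24% over all sums. Without M2 the count was 1 higher and 1 lower. The higher one was the GRAS factor scarecrow-like protein 13, with 149, 115 and 85.3 FPKM in M1, M2 and M3, against 51.2, 51.9 and 53.5 FPKM in CK1, CK2 and CK3. Its CK libraries were nearly equal and all below M (log2 fold change 1.12 ± 0.33 (SE), adjusted p = 0.496). On the log2 scale the difference ranged from 0.92 to 1.25 across the leave-one-out fits and missed the thresholds without M1. The F-box protein GID2, which marks DELLA growth repressors for breakdown, was lower, with 48.5, 42.1 and 128 FPKM in M and 139, 261 and 205 FPKM in CK (log2 fold change -1.45 ± 0.51 (SE), adjusted p = 0.555). Fitted log2 fold changes were -2.25 to -1.14 across the leave-one-out fits and missed the thresholds without M1, M2 or CK2.

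Enzymes of melatonin synthesis itself showed little. Of 7 sums, 1 passed (14.3%, against 2.49% higher over all sums), a putative tyrosine decarboxylase at low levels with 1.42, 2.6 and 0.986 FPKM in M and 0.617, 0.493 and 0.249 FPKM in CK (log2 fold change 1.77 ± 0.52 (SE), adjusted p = 0.496). It is of the aromatic amino acid decarboxylase family whose tryptophan-using members make tryptamine. Serotonin N-acetyltransferase 2, of the step before the last, had 13.2, 12.2 and 13.7 FPKM in M and 10.2, 7.65 and 12.1 FPKM in CK and did not pass. Caffeic acid 3-O-methyltransferase, an enzyme of lignin synthesis that in Arabidopsis can also methylate N-acetylserotonin, had 88.4, 73.8 and 83.6 FPKM in M and 135, 103 and 107 FPKM in CK and did not pass either, although its M libraries were all below CK.

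In photosynthesis, 1 of 11 antenna sums, 1 of 34 photosystem and electron transport sums and 1 of 14 Rubisco and Calvin cycle sums were higher in M and none was lower. These shares were 9.09%, 2.94% and 7.14%, against 2.49% higher and 1.24% lower over all sums. All 3 were minor members. Chlorophyll a-b binding protein 7 isoform X1 had 15, 11.6 and 10.4 FPKM in M and 5.64, 4.45 and 3.18 FPKM in CK (log2 fold change 1.60 ± 0.34 (SE), adjusted p = 0.354), and when descriptions that differ only in isoform or species were merged its log2 fold change was -0.13. An oxygen-evolving enhancer protein held 9.78, 15.4 and 10.2 FPKM in M and 5.92, 1.65 and 2.24 FPKM in CK (log2 fold change 1.81 ± 0.45 (SE), adjusted p = 0.43). Rubisco small chain 3A held 3.05, 2.89 and 8.01 FPKM in M and 0.745, 1.76 and 2.51 FPKM in CK. Its log2 fold change ran from 1.12 to 1.84 across the leave-one-out fits and missed the thresholds without M3 or CK1.

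Carbohydrate genes gave 1 higher call in 19 trehalose and raffinose sums (5.26%, against 2.49% over all sums). Of 29 starch sums 2 were higher (6.90%). A beta-amylase held 0.021, 3.88 and 5.67 FPKM in M and 0.0826, 0 and 0 FPKM in CK, and missed the thresholds without CK2 or CK3. Beta-amylase 3, the most abundant starch sum, had 140, 80.8 and 297 FPKM in M and 180, 161 and 124 FPKM in CK. It did not pass. Starch synthase 3, which extends amylopectin chains, had 11.7, 13.7 and 4.37 FPKM in M and 3.35, 4.62 and 5.61 FPKM in CK. The log2 fold change spanned 0.81 to 1.39 across the leave-one-out fits and missed the thresholds without M1, M2 or CK1. Trehalose-phosphate synthase 1, the enzyme of the signal sugar trehalose 6-phosphate, had 1.84, 1.8 and 6.17 FPKM in M and 0.26, 0.671 and 1.03 FPKM in CK for 1 of its listed isoforms and passed in all 6 leave-one-out fits (log2 fold change 2.37 ± 0.66 (SE), adjusted p = 0.491). A putative sucrose synthase, the only 1 of 32 sucrose sums that passed (3.1%, against 1.24% lower over all sums), was lower, with 4.41, 3.3 and 1.17 FPKM in M and 3.4, 8.4 and 14.3 FPKM in CK. On the log2 scale the difference ranged from -2.08 to -1.09 across the leave-one-out fits and missed the thresholds without CK3. In the circadian clock list, 1 of 18 sums passed and was lower (5.56%, against 1.24% over all sums). It was APRR9 isoform X2, with 2.3, 1.91 and 1.12 FPKM in M and 0.464, 19.5 and 12.8 FPKM in CK. CK1 was below all M libraries there. Fitted log2 fold changes were -3.23 to -1.92 across the leave-one-out fits and missed the thresholds without M3 or CK2.

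**Figure D3:**
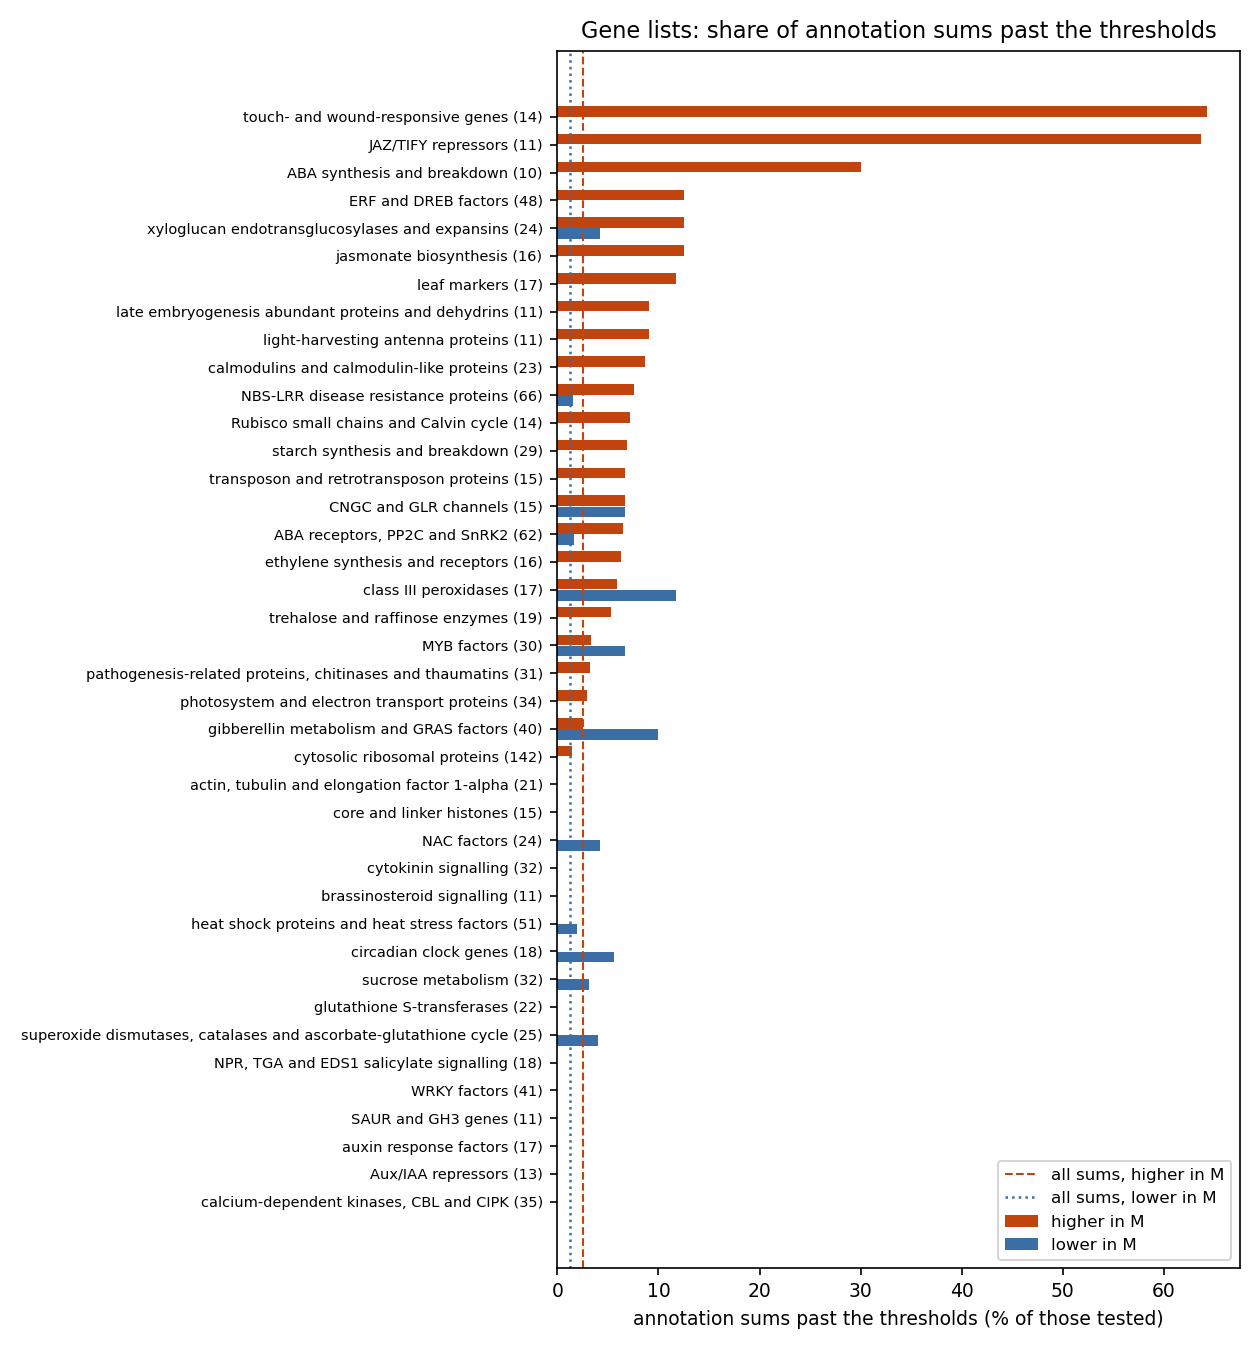
Bars give, for each list with at least 10 tested annotation sums (number in brackets), the percentage past the thresholds and higher in M (orange) or lower in M (blue); the dashed and dotted lines mark 2.49% and 1.24%, the shares over all 15402 sums. JAZ/TIFY (7 of 11) and touch genes (9 of 14, 6 of them shared with the JAZ/TIFY list as members) stand far right of the lines, and 11 lists have no bar at all. The lists were chosen with earlier results of these data known, so their distance from the lines is no separate support.

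Antioxidant genes were examined in 3 lists. None of 22 glutathione S-transferases passed, and of 25 sums of superoxide dismutases, catalases and the ascorbate-glutathione cycle, 1 was lower in M (4%, against 1.24% over all sums). It was a Cu-Zn superoxide dismutase with 62.6, 50.3 and 37.6 FPKM in M and 42.6, 181 and 87.5 FPKM in CK. CK1 lay within the M range. The sum's log2 fold change ran from -1.48 to -0.44 across the leave-one-out fits and missed the thresholds without M3 or CK2. Without M2, 2 sums of that list were lower. Among 17 class III peroxidases, 1 was higher and 2 were lower (5.88% and 11.8%, against 2.49% and 1.24% over all sums), as many as without M2. The sum named putative peroxidase, acid phosphatase had 22.5, 61.4 and 74.4 FPKM in M1, M2 and M3, against 2, 1.64 and 0.391 FPKM in CK1, CK2 and CK3. Its M libraries stood far above CK, M3 being the highest (log2 fold change 5.25 ± 1.04 (SE), adjusted p = 0.343), and it passed in all 6 leave-one-out fits. Cationic peroxidase 2 was even within each group, with 16.7, 13.7 and 12.8 FPKM in M and 42.4, 49.6 and 39.1 FPKM in CK, yet it passed in none of the leave-one-out fits (log2 fold change -1.63 ± 0.71 (SE), adjusted p = 0.685). Those fits gave log2 fold changes of -1.73 to -1.54. The salt libraries, which share the estimate of the spread, held 10.6, 4.57 and 49.9 FPKM in SM and 9.75, 2.83 and 7.26 FPKM in S. The part of that spread in the missed calls was not tested.

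Defence genes were examined in a pair of further lists. Of 31 sums of pathogenesis-related proteins, chitinases and thaumatins 1 was higher (3.23%, against 2.49% over all sums). It was a pathogenesis-related thaumatin family protein with 81.4, 13.6 and 19.3 FPKM in M and 7.81, 10.3 and 9.14 FPKM in CK. The log2 fold change spanned 0.97 to 2.48 across the leave-one-out fits and missed the thresholds without M1. Without M2, 1 sum of this list was higher and 4 were lower (1.69% and 1.46% over all sums). Class I chitinase, the most abundant sum of this list, had 302, 983 and 322 FPKM in M and 565, 656 and 3418 FPKM in CK. It did not pass. Of 66 NBS-LRR resistance proteins, intracellular receptors of pathogen effectors, 5 were higher and 1 lower (7.58% and 1.52%, against 2.49% and 1.24% over all sums). Without M2 the balance turned, with 2 higher and 3 lower. RPM1 isoform X1 had 2.23, 5.85 and 2.04 FPKM in M and 0.306, 0.945 and 1.15 FPKM in CK (log2 fold change 1.98, and 1.41 without M2, where it missed the p threshold), and TAO1 isoform X2 was lower, with 1.75, 1.23 and 0.962 FPKM in M and 2.44, 3.2 and 2.89 FPKM in CK (log2 fold change -1.15 ± 0.30 (SE), adjusted p = 0.491). Of 51 heat shock sums 1 was lower (1.96%, against 1.24% over all sums), a 70 kDa heat shock protein chaperone with 3.23, 4.02 and 2.19 FPKM in M and 11.9, 31.6 and 22.9 FPKM in CK. All M libraries were below all CK libraries (log2 fold change -2.97 ± 0.88 (SE), adjusted p = 0.496), and the call was kept in all 6 leave-one-out fits.

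Lists of other regulators and of housekeeping genes held few calls. Of 24 NAC factors 1 was lower (4.17%, against 1.24% over all sums), and 2 were lower without M2. Of 30 MYB factors 1 was higher and 2 were lower (3.33% and 6.67%), and without M2 none was higher and 2 were lower. Of 11 late embryogenesis abundant proteins and dehydrins 1 was higher (9.09%, against 2.49% over all sums), with or without M2. It was late embryogenesis abundant protein 6, with 0, 0 and 0.336 FPKM in M and 0, 0 and 0 FPKM in CK. This call rests on M3 alone and missed the thresholds without M3, CK1, CK2 or CK3. Among 142 cytosolic ribosomal protein sums 2 were higher (1.41%) and none without M2, and the median was -0.04. None of 15 histone sums, 21 sums of actin, tubulin and elongation factor 1-alpha or 6 sums of root and nodule markers passed. Of 15 transposon sums 1 was higher (6.67%, against 2.49% over all sums), the putative reverse transcriptase that only M2 held at a high level.

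The widest differences among sums that passed and did not overlap included low and unnamed transcripts. CAR2, a cold acclimation responsive protein of alfalfa, had the highest log2 fold change among those with a mean of at least 10 counts in both groups, with 212, 76.8 and 5.57 FPKM in M1, M2 and M3, against 1.28, 1.32 and 3.05 FPKM in CK1, CK2 and CK3. The M libraries themselves spread widely, and all stood above CK (log2 fold change 5.61 ± 1.83 (SE), adjusted p = 0.534). The receptor-like kinase SD1-8 held 2.8, 24.7 and 18.9 FPKM in M and 0.574, 2.25 and 1.19 FPKM in CK (log2 fold change 3.85 ± 0.79 (SE), adjusted p = 0.352) and EXO70H1, a subunit of the exocyst that tethers secretory vesicles and was named after its values were seen, 2.77, 5 and 1.61 FPKM in M and 0.461, 0.191 and 0.296 FPKM in CK. Both passed in all 6 leave-one-out fits.

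At the lower end, an uncharacterized protein, LOC11426583, had 0.167, 0.132 and 0.0235 FPKM in M and 0.27, 12.5 and 8 FPKM in CK. CK1 was close to the M libraries there, and the other CK libraries were far above them. FKBP62 isoform X2, a peptidyl-prolyl isomerase, held 2, 0 and 0 FPKM in M and 24.8, 23 and 9.96 FPKM in CK, and among the leave-one-out fits it passed only without M1, where both remaining M libraries were at 0. A replication protein A 70 kDa subunit had 0.134, 2.97 and 1.39 FPKM in M and 14.1, 5.15 and 15.1 FPKM in CK (log2 fold change -3.10 ± 0.93 (SE), adjusted p = 0.496) and was lower in all 6. Named after their values were seen, the strictosidine synthase family held 4.87, 6.21 and 5.36 FPKM in M and 49, 17.4 and 46.2 FPKM in CK (log2 fold change -2.79 ± 0.74 (SE), adjusted p = 0.491), and betaine aldehyde dehydrogenase, the last step of glycine betaine synthesis, 3, 0.347 and 0.171 FPKM in M and 8.53, 8.54 and 5.76 FPKM in CK (log2 fold change -2.76 ± 0.95 (SE), adjusted p = 0.555). These too passed in all 6 leave-one-out fits.

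Sums that passed in the full fit and in all 6 leave-one-out fits, with a mean of at least 100 FPKM in one of the groups, numbered 10 higher and 4 lower in M, a selection made after the values were seen. CML24 and PP2C 63 were among the higher ones. The smallest p of all sums belonged to an uncharacterized protein, LOC11443495, with 514, 719 and 145 FPKM in M1, M2 and M3, against 58.3, 62.5 and 87.5 FPKM in CK1, CK2 and CK3. Every M library was above every CK library (log2 fold change 2.67 ± 0.44 (SE), adjusted p = 0.194). Nodulin-related protein 1 was the most abundant, with 2039.9, 2439 and 1596 FPKM in M1, M2 and M3, against 611, 549 and 1242 FPKM in CK1, CK2 and CK3, again without overlap (log2 fold change 1.31 ± 0.29 (SE), adjusted p = 0.362).

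EXORDIUM, which promotes leaf growth under brassinosteroids in Arabidopsis, had 518, 658 and 313 FPKM in M and 118, 111 and 156 FPKM in CK (log2 fold change 1.88 ± 0.64 (SE), adjusted p = 0.555). Palmitoyl-protein thioesterase 1, which removes fatty acids from proteins, had 352, 351 and 405 FPKM in M and 139.8, 98.3 and 83.9 FPKM in CK, with M2 no higher than M1 (log2 fold change 1.75 ± 0.42 (SE), adjusted p = 0.422). A GSH-induced LITAF domain protein held 73.1, 183 and 47.3 FPKM in M and 20.6, 30.2 and 32.1 FPKM in CK, and protein ALP1-like 132, 262 and 88.2 FPKM in M and 45.6, 50.8 and 66.1 FPKM in CK. Both were highest in M2 and separate from CK. The other higher sums, a putative phosphotransferase with 189, 199 and 87.6 FPKM in M and 34.5, 40.9 and 79.5 FPKM in CK and a hypothetical protein, MtrunA17_Chr4g0042971, with 333, 784 and 423 FPKM in M and 101, 96.5 and 303 FPKM in CK, showed the same separation.

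The 4 lower sums included enzymes of specialised metabolism. A homolog of isoflavone reductase, PCBER, of a family that reduces phenylpropanoid dimers and isoflavones, had 137, 156 and 74.1 FPKM in M1, M2 and M3, against 638, 287 and 205 FPKM in CK1, CK2 and CK3. All M libraries were below CK (log2 fold change -1.69 ± 0.41 (SE), adjusted p = 0.422). Cytochrome P450 82A1, of a monooxygenase family of legume specialised metabolism, held 61.9, 50.3 and 71.3 FPKM in M and 292, 219 and 117 FPKM in CK (log2 fold change -1.80 ± 0.45 (SE), adjusted p = 0.43), and SPIRAL1-like 2, whose Arabidopsis relatives bind microtubules, 118, 45.6 and 73.7 FPKM in M and 261, 206 and 121 FPKM in CK (log2 fold change -1.34 ± 0.38 (SE), adjusted p = 0.491). A pool of 178 receptor-like kinase models, RLK-Pelle-DLSV, had 115, 173 and 80 FPKM in M and 150.4, 284 and 304 FPKM in CK, where CK1 lay within the M range.

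**Figure D4:**
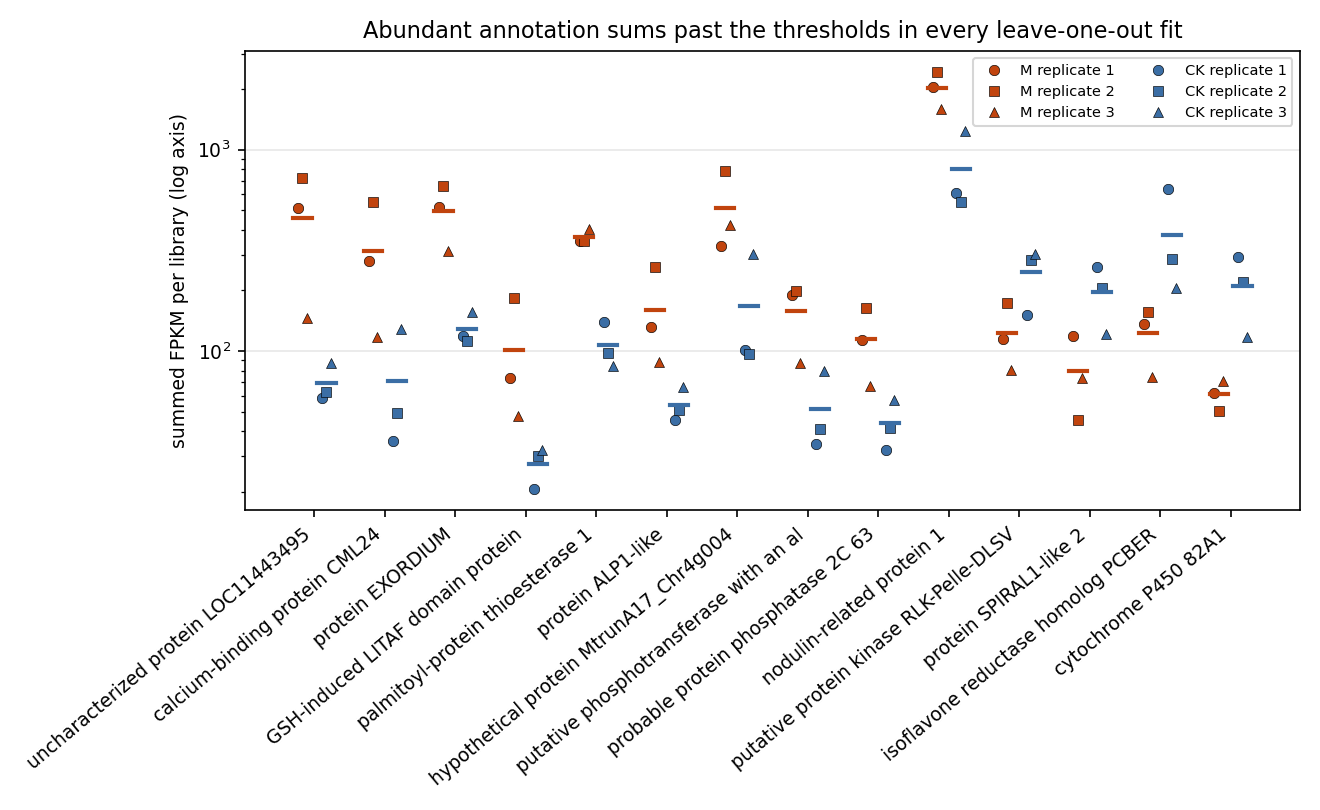
Summed FPKM on a log axis for the 14 sums that passed in the full fit and every leave-one-out fit with a group mean of at least 100 FPKM, ordered by log2 fold change; M libraries are orange on the left of each pair, CK libraries blue on the right, symbols are libraries and bars group means. The 10 sums on the left are higher in M and led by LOC11443495 (log2 fold change 2.67), and the 4 on the right are lower in M.

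Counted per gene model instead of per annotation, 2456 models passed (4.82%), 1461 of them higher (2.87%) and 995 lower (1.95%) in M, and 2843 (5.58%) had an unadjusted p below 0.05. At an adjusted p below 0.05, DESeq2 called 846 models (1.69%) on 12 libraries and 994 (2.01%) on the 6 libraries. Of the 2391 such models whose description is carried by other models too and whose annotation sum was tested, the sum passed in the same direction for 456 and had the opposite sign for 386. The median size of the log2 fold change was 2.02 for the models and 0.42 for their sums. Among 193 descriptions of at most 12 models with 2 or more models past the thresholds, all of these lay in 1 direction for 135.

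Of the models past the thresholds, 261 had at most 3 counts in every CK library and 198 at most 3 counts in every M library. In the first set, 50 had more than 3 counts in all 6 salt libraries and 13 in none of them, and in the second set these numbers were 31 and 6.

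The 6 models with an adjusted p below 0.05 (0.0118% of those tested by edgeR with Benjamini-Hochberg adjustment) were all of this kind, with 0 counts in every library of one group. Coordinates are those of the deposited table, whose genome build is not given in the sources used here. MS.gene96686 (chromosome 1.1, 76488296 to 76493106), a zinc finger protein-like 1 homolog, had 12.1, 6.29 and 11.4 FPKM in M1, M2 and M3, against 0, 0 and 0 FPKM in CK1, CK2 and CK3. Its 2 copies, on chromosomes 1.2 and 1.3, held 10.6, 11.3 and 4.29 FPKM in M and 4.42, 6.54 and 5.9 FPKM in CK for the first and 11.9, 13.8 and 11.1 FPKM in M and 13.9, 11.7 and 16.1 FPKM in CK for the second. The sum of the 3 differed by 0.63 on the log2 scale (adjusted p = 0.534).

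MS.gene046972 (chromosome 5.2, 149719 to 153027), a hypothetical protein, had 10, 10.6 and 9.22 FPKM in M and 0, 0 and 0 FPKM in CK, while the sum with its 3 copies on the other chromosomes 5 held 61.4, 59.6 and 58.5 FPKM in M and 45.1, 61.8 and 79.3 FPKM in CK. MS.gene20144 (chromosome 4.4, 3671768 to 3683252), of an uncharacterized protein, was likewise present in M only, at 1.86, 2.42 and 1.55 FPKM in M and 0, 0 and 0 FPKM in CK. MS.gene070003 (chromosome 3.1, 91492687 to 91503631), annotated as epidermal growth factor receptor substrate 15, a name given to endocytosis adaptors, had 10.6, 12.3 and 5.04 FPKM in M and 0, 0 and 0 FPKM in CK. The sums over the copies of the last 3 models had log2 fold changes of -0.07, -0.30 and 0.60 (adjusted p = 0.976, 0.872 and 0.644).

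The other 2 models were present in CK and at 0 in M. MS.gene20225 (chromosome 4.4, 4675927 to 4676763), an uncharacterized protein, had 0, 0 and 0 FPKM in M and 9.58, 5 and 12 FPKM in CK, and the sum over its 4 copies had a log2 fold change of -0.01. MS.gene049285 (chromosome 3.3, 79788977 to 79790092), described as unknown, had 0, 0 and 0 FPKM in M and 4.08, 3.31 and 2.04 FPKM in CK. In the SM and S libraries all 6 models were present, and the difference between the melatonin contrasts with and without salt passed an adjusted p of 0.05 for 14 models (0.0275%), these 6 among them. That difference includes the M and CK counts by which the 6 were called, so it is no separate support.

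**Figure D5:**
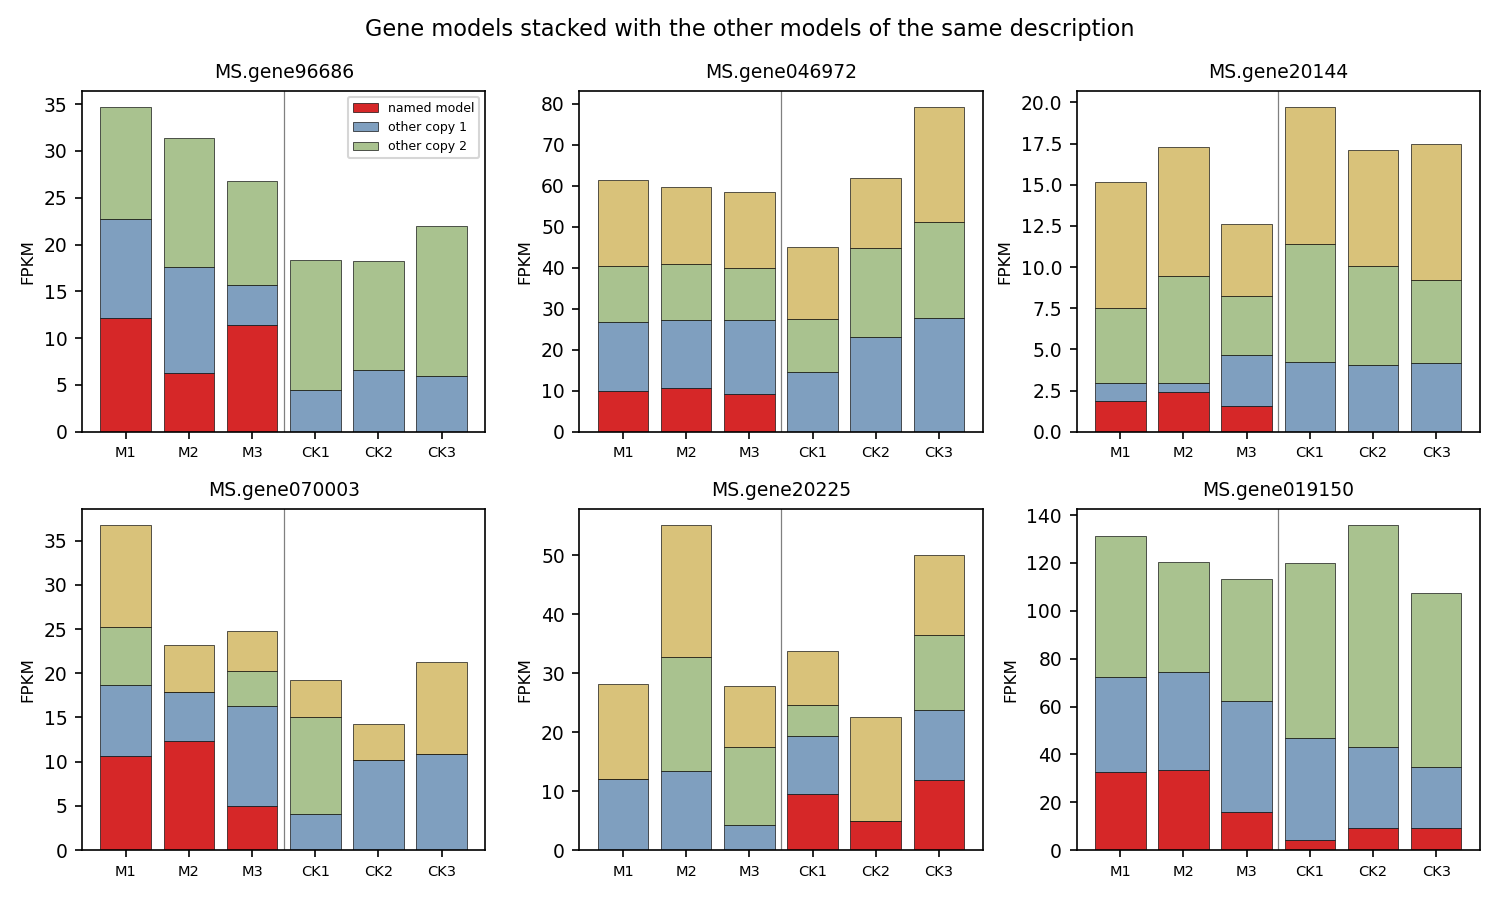
Each panel stacks, for libraries M1 to M3 (left) and CK1 to CK3 (right), the FPKM of 1 named gene model (red) and of the other models with the same description (other colours). The red segment is missing from all CK libraries in the first 4 panels and from all M libraries for MS.gene20225, while the other copies are present in both groups. Some other copies are also at 0 in single libraries. The MS.gene20225 copy on chromosome 4.2 is at 0 in M1 and CK2, and the MS.gene070003 copy on chromosome 3.2 in CK2 and CK3. For MS.gene019150 the red segment is larger in M and the column height similar.

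The study designed qRT-PCR primers for 20 gene models, of which 18 were tested here and 5 passed. The primer pairs of those 5 are shown because they are the sequences the study designed for these models, each written 5′ to 3′ in lower case with no part marked.
PIF4 forward: tgggaatgaccacaccttcg
PIF4 reverse: tgtgttggcctacccattttg
GID2 forward: agggctagcgagttttgacg
GID2 reverse: gccagtgttagcccactgtt
TIR1 forward: ggaagccacgtttctctgact
TIR1 reverse: gagcctcaactcctcaagaaaa
ERF1B forward: gggggaaatttgcagcagag
ERF1B reverse: gtgttgcagctgaacctctc
bHLH13 forward: taggaggccaaggaaacgtg
bHLH13 reverse: gtttgctggcaataccgatg

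PIF4 is a bHLH factor of light and temperature signalling that promotes elongation. Its primer model MS.gene019150 (chromosome 3.3, 36591095 to 36593116) had 32.8, 33.6 and 15.9 FPKM in M1, M2 and M3, against 4.41, 9.37 and 9.16 FPKM in CK1, CK2 and CK3. All M libraries were above all CK libraries (log2 fold change 1.80 ± 0.53 (SE), adjusted p = 0.77), in all 6 leave-one-out fits. The sum of the 3 models of that description, however, held 131, 120.3 and 113 FPKM in M and 119.9, 136 and 107 FPKM in CK (log2 fold change -0.12, adjusted p = 0.939). The copy on chromosome 3.2 held 58.6, 45.9 and 50.7 FPKM in M and 72.9, 92.7 and 72.4 FPKM in CK, so the copies differed in direction.

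bHLH13, a JAZ-interacting factor of the same bHLH group as MYC2, had 10.2, 40.9 and 12 FPKM in M and 5.9, 3.84 and 5.94 FPKM in CK for MS.gene068358 (chromosome 8.3, 66749811 to 66751682). This model was higher in M (log2 fold change 1.95, and 1.12 without M2), but missed the thresholds without M2 or CK2, and its sum did not pass, with 35, 99.8 and 25.5 FPKM in M and 29.1, 27.5 and 32.8 FPKM in CK. TIR1, the auxin receptor F-box protein, had 2.02, 0.473 and 0.716 FPKM in M and 3.36, 2.53 and 3.58 FPKM in CK for MS.gene048842 (chromosome 4.1, 5654420 to 5657110), a log2 fold change that ran from -2.37 to -1.21 across the leave-one-out fits and missed the thresholds without M2 or M3, and its sum held 48.5, 57.5 and 58.3 FPKM in M and 69.7, 71.8 and 68.9 FPKM in CK. All M sums were below all CK sums, a difference under the fold threshold (log2 fold change -0.38, adjusted p = 0.676).

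ERF1B, an ethylene and jasmonate response factor, had 0.789, 1.84 and 1.67 FPKM in M and 12, 7.05 and 2.8 FPKM in CK for MS.gene053409, which lies on the unplaced sequence 6958. On the log2 scale the difference ranged from -2.76 to -1.78 across the leave-one-out fits and missed the thresholds without M1, M2, M3, CK1 or CK2, and the sum over 41 models of that description differed by -0.62 on the log2 scale (adjusted p = 0.843). The GID2 model MS.gene012927 (chromosome 3.4, 90061055 to 90061582) is the only one of its description, so its values are those of the sum given above (log2 fold change -1.44 in the fit of gene models). As annotation sums, 2 of the primer genes passed, GID2 and starch synthase 3.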

How the data were processed

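Leaf RNA of 12 libraries was sequenced on the Illumina platform. The authors trimmed reads with Cutadapt, aligned them with HISAT2 2.0.4 and assembled and quantified transcripts with StringTie. The genome build is not given in the sources used here. The deposited table holds FPKM values and whole-number expected counts (estimated counts) per gene model, and the authors wrote FPKM of 0 as a small placeholder, which was set back to 0. Counts were tested as deposited with edgeR 4.0.16 (R 4.3.3; TMM, glmQLFit, glmQLFTest) on all 12 libraries, with the contrast M minus CK and features of mean FPKM of at least 1, per gene model and per sum over models of 1 description. SE is the log2 fold change divided by the square root of F. Alternatives were DESeq2 1.42.0, limma 3.58.1, RLE factors, other filters, the 6 libraries alone, a replicate block, merged descriptions and each library left out. Members and lists were chosen with earlier results of these data known. Lists hold descriptions matching fixed words. Selected by rule were features with an adjusted p below 0.05, the 10 highest and lowest non-overlapping sums with both group means of at least 10 counts, up to 3 sums of smallest p and the most abundant sum per list, and the primer genes. Not every selected feature is given in the text. Catalase-4 and peroxidase 42, the most abundant sums of their lists, are among those left out, and neither passed. The edgeR step was tested on simulated data. Intervals cover the spread between libraries only.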

Additional observations from a re-analysis of the deposited data

Results flagged for a closer look

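SM and S plants give a second comparison of melatonin with no melatonin, under salt, which shares no library with M and CK. The difference between the 2 log2 fold changes had an adjusted p below 0.05 for 14 of 50931 gene models and 0 of 15402 annotation sums (edgeR, Benjamini-Hochberg adjustment), with an unadjusted p below 0.05 for 1244 of the sums. All 6 gene models called at an adjusted p below 0.05 in M vs CK were among the 14. The difference reuses the M and CK counts by which these 6 were called, so their passing is no separate support. As 1 group lies at 0 for each, the fitted sizes depend on the prior count and are no measure of the change. The fitted difference was -12.38 for MS.gene96686, -13.78 for MS.gene046972, -12.07 for MS.gene20144, -12.93 for MS.gene070003, 11.07 for MS.gene20225 and 9.07 for MS.gene049285.

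MS.gene96686 held 7.17, 9.35 and 10.1 FPKM in the SM libraries and 8.16, 10.7 and 8.4 FPKM in the S libraries. MS.gene046972 held 6.65, 12.7 and 8.35 FPKM in the SM libraries and 9.53, 19.3 and 6.65 FPKM in the S libraries. MS.gene20144 held 2.97, 1.25 and 1.74 FPKM in the SM libraries and 1.9, 2.33 and 2.21 FPKM in the S libraries. MS.gene070003 held 12.8, 13.5 and 10.1 FPKM in the SM libraries and 10.1, 6.48 and 1.18 FPKM in the S libraries. MS.gene20225 held 29.7, 26.6 and 26.8 FPKM in the SM libraries and 27, 24.6 and 33.9 FPKM in the S libraries. MS.gene049285 held 12.5, 8.47 and 7.2 FPKM in the SM libraries and 12.7, 9.71 and 18 FPKM in the S libraries. The copies were thus present in both salt groups.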

How the results depend on the processing

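The count of gene models past the thresholds (2456) was 4553 with no filter on low values and 1145 with a mean of at least 5 FPKM, and that of annotation sums (574) was 903 and 349. Leaving out 1 library gave 1816 to 3172 gene models and 444 to 703 annotation sums. At an adjusted p below 0.05, the 6 gene models were 0 in the fit on 6 libraries, 846 and 994 with DESeq2 on 12 and 6 libraries, 11 and 15 with limma at a pseudocount of 1 and 0.1, 0 with a replicate block and 5 to 52 without 1 library. The 0 annotation sums were 190 and 237 with DESeq2, 1 with limma at a pseudocount of 1 and 0 to 2 without 1 library. The cause of these differences was not tested. Same-numbered M and CK libraries deviated from their group means with correlations of 0.07, 0.07 and -0.12 over annotation sums, against -0.15 to 0.12 for unlike numbers. These values gave no sign of a pairing by number, but with 3 libraries a group they cannot exclude one. A replicate block left 2150 gene models and 524 sums past the thresholds. Of 83 named results, 38 kept their direction and side of the thresholds under every alternative run, and 28 were lost without M2. A reversed sign was found for the putative reverse transcriptase, whose leave-one-out log2 fold changes ran from -0.63 (without M2) to 4.64, for chlorophyll a-b binding protein 7 isoform X1 with descriptions merged (-0.13) and for transcription factor PIF4 isoform X1 [Medicago truncatula] under limma (0.0107 at a pseudocount of 0.1 and 0.0106 at 1). With 3 libraries a group, low sums such as TIFY 10a isoform X1 rest on 1 library.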
